A study of Rattus norvegicus with 9 samples.

Results

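The tumour necrosis factor (TNF) superfamily was followed in hepatic macrophages of rats whose portal vein had been partially ligated (PPVL). Narrowing the vein in this way models portal hypertension. Members were the genes whose symbol begins with Tnfsf or Tnfrsf, plus Tnf, Lta, Ltb, Ltbr, Fas and Faslg, each read from its probeset of highest mean signal; Cd40 was not included. The array held 32 such genes, 12 ligands and 20 receptors, among 18166 genes with a single symbol, and each member had 1 such probeset. Of these, 30 members (all 12 ligands and 18 receptors) reached the level needed for testing, a mean log2 signal of at least 4.16 over the 9 arrays. The receptors Tnfrsf10b and Tnfrsf19 did not. The annotation gives 1 further probeset to both Tnfsf12 and Tnfsf13, and it was counted for neither gene.

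The 9 arrays came from 9 male Sprague-Dawley rats in 3 groups of 3: rats with PPVL studied after 3 days, rats with PPVL studied after 10 days, and sham rats, which had the same operation without the ligature. The labels give no day for the sham rats and no age, allele or drug for any group. Each label carries its own number within its group, and each is taken here as a separate rat. Both PPVL groups are set against the same 3 sham arrays, so their differences from sham are not independent of each other. Values are log2 signals, and a difference is given ± its standard error (SE) with n = 3 rats per group. Adjusted p values come from limma's moderated test, adjusted by Benjamini-Hochberg over all 14014 genes tested, and a gene is said to have risen or fallen where adjusted p is under 0.05.

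TNF superfamily ligands are mostly trimeric proteins made at the cell surface, some of which are shed, and their receptors act through adaptors of the TRAF family or, where they carry a death domain, also through FADD or TRADD. The outcome is usually activation of NF-kappaB and related kinases or, for some death receptors, cell death. In the liver, macrophages are a main source of TNF, and ligands such as APRIL (Tnfsf13) and BAFF (Tnfsf13b) from myeloid cells support B cells and plasma cells. Several other receptors of the family, among them 4-1BB (Tnfrsf9), GITR (Tnfrsf18) and OX40 (Tnfrsf4), are best known as costimulatory receptors of T cells and natural killer cells.

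Each array's median signal was 5.21 to 5.26, and the correlation between any pair of arrays was 0.987 to 0.993. No pair of arrays held identical values. All 12 markers of macrophages and Kupffer cells were above the filter, with mean signals of 11.17 for Cd68, 10.25 for Csf1r and 12.85 for Lyz2. The Kupffer cell genes Clec4f (5.03), Cd163 (4.50), Cd5l (4.49), Timd4 (4.40) and Vsig4 (4.26) lay close to the filter. Markers of lymphocytes were also above it, 12 of 14 for T cells, 11 of 12 for natural killer cells and 10 of 12 for B and plasma cells. The markers not among these had no probeset with a single symbol. In sham rats the mean signal of these 3 lists was 9.39 to 9.57, 10.37 to 10.47 and 7.63 to 7.73. That of the 12 macrophage and Kupffer cell markers was 7.05 to 7.13. Means over different genes are not shares of cells. In RNA of such a preparation, fewer cells of a type and less RNA per cell cannot be told apart.

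At 3 days 3 of the 30 tested members rose over sham and none fell, where 2.86% of all genes tested were called, 2.15% as higher and 0.714% as lower. The risers were the ligand Tnfsf13 and the receptors Tnfrsf13c and Tnfrsf21. At an unadjusted p under 0.05 there were 7 members, where 15.5% of all genes were. At 10 days 1 of 30 rose, Tnfrsf13c, and none fell, where 0.735% of all genes were called, 0.492% as higher. There 9 had an unadjusted p under 0.05 (5 higher and 4 lower), where 16.2% of all genes did. The unadjusted counts at 3 and at 10 days both include Tnfrsf17. It reached the filter only through the PPVL rats, so its place in them is no support. Between 10 and 3 days none of the 30 members passed with limma, where 0.0714% of all genes did, and 3 had an unadjusted p under 0.05, where 11.3% of all genes did. The median difference of the 30 members was 0.062 at 3 days, 0.021 at 10 days and -0.049 between the days, beside -0.014, -0.00040 and 0.0053 over all genes tested.

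Groups that do not overlap give a second description. At 3 days 5 members lay above all sham rats and 4 below, where 10.1% and 8.66% of all genes did, 18.8% in all. At 10 days 6 lay above and 6 below, where 9.88% and 11.1% of all genes did, 21.0% in all. Between the days 1 lay higher at 10 days, Tnfrsf25, and 1 lower, Tnfsf11, where 6.90% and 7.74% of all genes did, 14.6% in all. Those above sham on both days were Tnfsf13, Tnfrsf13c, Tnfrsf21, Tnfrsf1a and Tnfrsf17, the last of which reached the filter only through the PPVL rats, so that its place here is no support. Those below sham on both days were Tnfrsf9 and Tnfrsf18. Both days are set against the same sham rats, and the share of all genes apart from sham on both days was not computed. The names listed for both days are therefore a description only.

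**Figure D1:**
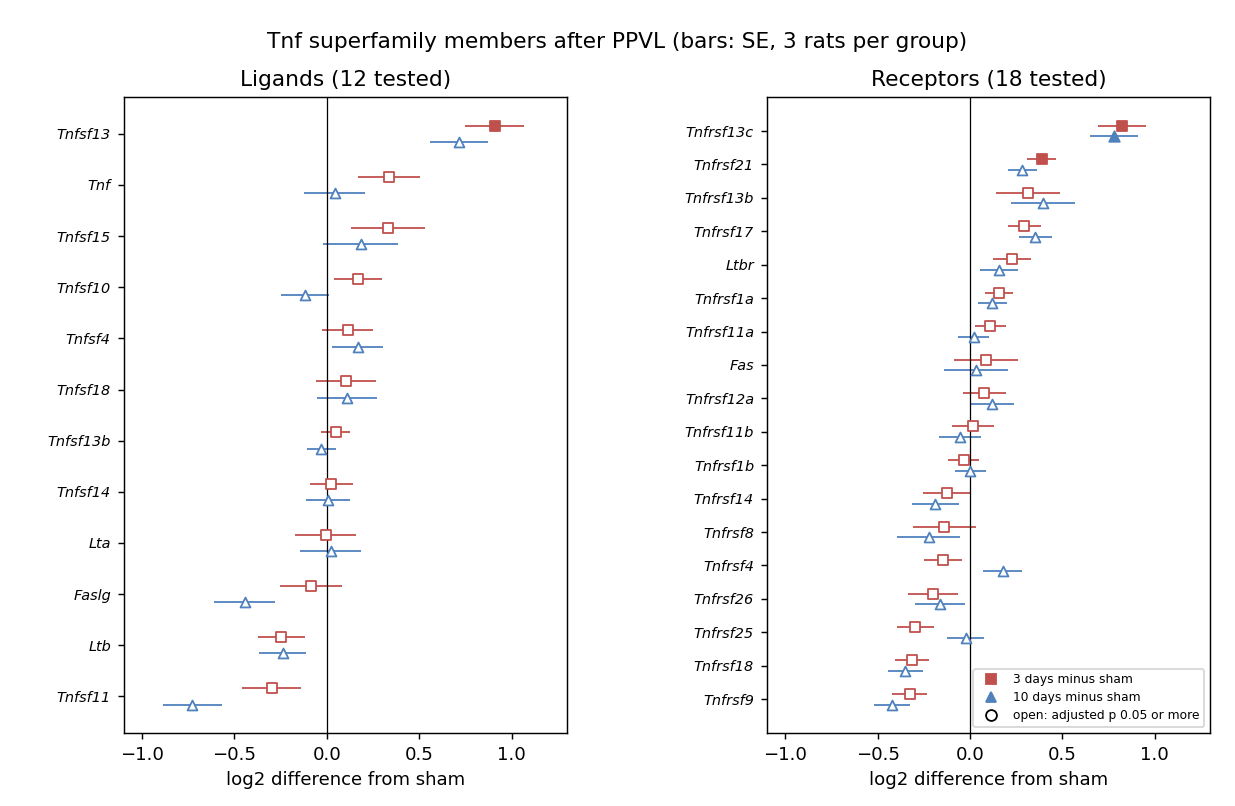
Log2 difference from sham (x axis) for each tested member, 12 ligands on the left and 18 receptors on the right, at 3 days (squares) and 10 days (triangles); bars are the SE with 3 rats per group, and filled symbols passed the test. Tnfsf13 and Tnfrsf13c stand furthest to the right, while Tnfsf11 at 10 days (-0.73) stands furthest to the left.

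Tnfsf13 encodes APRIL, a ligand of myeloid cells that binds the receptors TACI and BCMA on B cells and plasma cells. Its signals were 8.26, 8.90 and 8.75 in the sham rats, 9.53, 9.68 and 9.43 at 3 days and 9.54, 9.18 and 9.32 at 10 days. Every PPVL rat lay above every sham rat, and sham rat 1 was the lowest of the 9. Tnfsf13 rose by 0.91 ± 0.16 at 3 days (1.88-fold, adjusted p = 0.0180). At 10 days its difference was 0.71 ± 0.16 (1.64-fold, adjusted p = 0.0705), which did not pass, and between the days it was -0.19 ± 0.16 (adjusted p = 0.666). The call at 3 days was lost without 3-day rat 2 (0.84, adjusted p = 0.0675), and without sham rat 1 the difference was 0.72 (adjusted p = 0.0223). The probeset annotated to both Tnfsf12 and Tnfsf13, which was not in the fit, gave 8.90, 8.96 and 8.87 in sham rats, 9.38, 9.35 and 9.26 at 3 days and 9.45, 9.22 and 9.11 at 10 days. Here too every PPVL rat lay above every sham rat, but the differences were smaller, 0.42 and 0.35, and sham rat 1 was not the lowest array.

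Tnfrsf13c encodes the BAFF receptor, a survival receptor of B cells. Its signals were 7.84, 7.91 and 7.98 in sham rats, 8.79, 8.43 and 8.97 at 3 days and 8.72, 8.52 and 8.82 at 10 days. The lowest PPVL rat, 3-day rat 2, was well above the highest sham rat, and the PPVL groups overlapped each other. The rise was 0.82 ± 0.13 at 3 days (1.77-fold, adjusted p = 0.0118) and 0.78 ± 0.13 at 10 days (1.72-fold, adjusted p = 0.0449). Between the days the difference was -0.042 ± 0.13 (adjusted p = 0.926). The call at 3 days held in each of the 9 fits without 1 array (adjusted p up to 0.0473). That at 10 days was lost without sham rat 1 (0.0961), 2 (0.0978) or 3 (0.133), or 10-day rat 1 (0.150), 2 (0.0567) or 3 (0.136), while its value stayed between 0.72 and 0.86.

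The other receptors of the same ligands are TACI (Tnfrsf13b) and BCMA (Tnfrsf17), the latter typical of plasma cells. Tnfrsf13b gave 5.46, 5.52 and 5.67 in sham rats, 5.68, 5.56 and 6.35 at 3 days and 5.89, 5.93 and 6.02 at 10 days. All 10-day rats were above the sham rats, while at 3 days the groups overlapped and rat 3 was the highest of the 9. Its differences of 0.31 ± 0.17 at 3 days (0.069 without 3-day rat 3) and 0.40 ± 0.17 at 10 days did not pass (adjusted p = 0.441 and 0.301). Tnfrsf17 gave 3.92, 4.05 and 3.88 in sham rats, 4.15, 4.18 and 4.40 at 3 days and 4.43, 4.18 and 4.31 at 10 days. It reached the filter through the PPVL rats, since its sham mean of 3.95 lies under 4.16. Its differences of 0.29 ± 0.091 and 0.35 ± 0.091 did not pass either (adjusted p = 0.137 and 0.101). BAFF itself, Tnfsf13b, gave 4.73, 4.88 and 4.78 in sham rats, 5.01, 4.79 and 4.74 at 3 days and 4.75, 4.76 and 4.78 at 10 days. Its groups overlapped, with differences of 0.047 ± 0.079 and -0.031 ± 0.079 (adjusted p = 0.844 and 0.898).

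Markers of B cells and plasma cells were on average higher on the same arrays. Their score, the mean over the 10 tested genes of the signal less the gene's mean over all arrays, was -0.37, -0.27 and -0.35 in the sham rats. It was -0.03, -0.13 and 0.46 at 3 days and 0.26, 0.08 and 0.35 at 10 days, so that no PPVL rat overlapped a sham rat. The mean signal of these genes ran from 7.63 to 7.73 in sham rats, from 7.87 to 8.46 at 3 days and from 8.08 to 8.35 at 10 days. At 3 days 2 of the 10 rose, Vpreb3 (0.83) and the complement receptor Cr2 (0.75), where 2.15% of all genes did. Of the 10, 9 were higher at 3 days and 1, Jchain (-0.040 ± 0.29), was lower, while Mzb1 differed by 0.22 ± 0.32. At 10 days all 10 were higher and none passed with limma, where 0.735% of all genes did. There 8 had an unadjusted p under 0.05, where 16.2% of all genes did. With this score as a covariate, an analysis added after the data had been examined, Tnfrsf13c differed by 0.48 ± 0.12 at 3 days (adjusted p = 0.162) and 0.34 ± 0.15 at 10 days (adjusted p = 0.540). Tnfsf13 then differed by 0.93 ± 0.24 (adjusted p = 0.168) and 0.75 ± 0.29 (adjusted p = 0.519). The score itself differed between the groups, so its share and that of the ligation cannot be told apart.

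**Figure D2:**
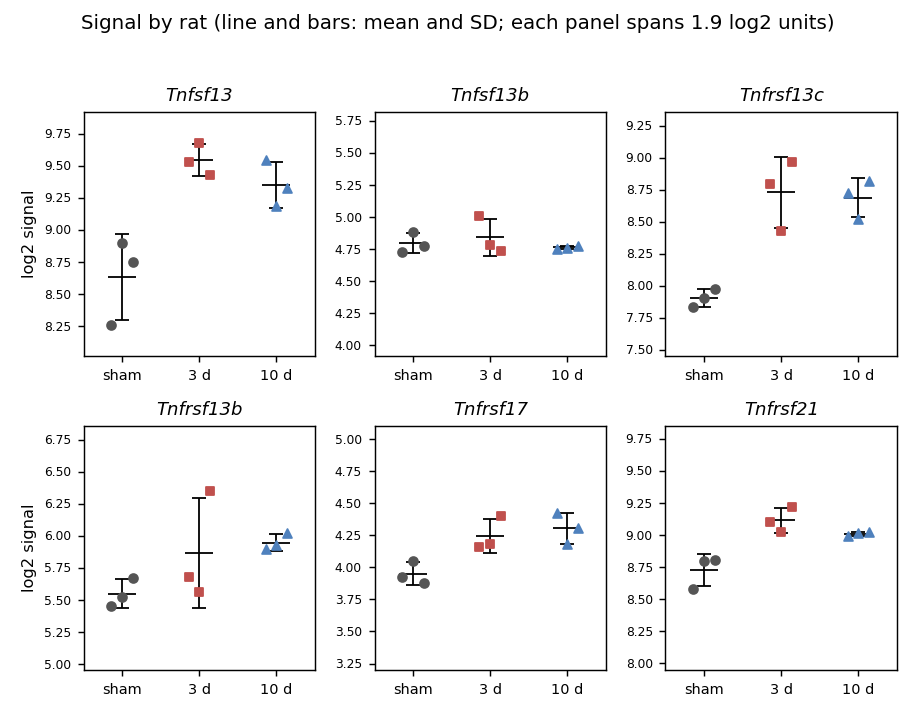
Log2 signal (y axis) of each rat for the ligands APRIL (Tnfsf13) and BAFF (Tnfsf13b), their receptors Tnfrsf13c, Tnfrsf13b and Tnfrsf17, and the death receptor Tnfrsf21, in sham, 3-day and 10-day groups; the line and bars are the mean and SD of 3 rats, and each panel spans the same 1.9 log2 units. Tnfsf13 and Tnfrsf13c are higher in all 6 PPVL rats than in any sham rat, and Tnfsf13b stays within 4.73 and 5.01.

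Tnfrsf21 encodes death receptor 6, a receptor with a death domain found in many tissues. Its signals were 8.58, 8.80 and 8.80 in sham rats, 9.10, 9.02 and 9.22 at 3 days and 8.99, 9.01 and 9.03 at 10 days. The PPVL rats all lay above the sham rats, of which rat 1 was again the lowest. It rose by 0.39 ± 0.078 at 3 days (1.31-fold, adjusted p = 0.0338), and its difference of 0.28 ± 0.078 at 10 days did not pass (adjusted p = 0.118). The call at 3 days was lost in each of the 9 fits without 1 array, with adjusted p from 0.0537 without 3-day rat 2 to 0.0860 without 3-day rat 3, and the value was 0.31 to 0.43. Of the 12 macrophage and Kupffer cell markers 2 rose at 3 days (Cd14 and Lyz2), where 2.15% of all genes did. At 10 days none passed with limma, where 0.735% of all genes did. There 3 had an unadjusted p under 0.05, where 16.2% of all genes did. Marco (-0.22 and -0.10) and Timd4 (-0.10 and -0.15) were lower than sham on both days. The score of the list was -0.25 to -0.18 in sham rats, 0.04 to 0.43 at 3 days and 0.01 to 0.08 at 10 days. The mean signal of these markers was 7.05 to 7.13, 7.34 to 7.73 and 7.32 to 7.39. Among them Vsig4 (mean 4.26, differences 0.73 and 0.41) reached the filter only through the PPVL rats. Its part in the score is therefore no support, and the score without it was not computed. Sham rat 1, the lowest for both Tnfsf13 and Tnfrsf21, also had the lowest score of 11 neutrophil markers. That score was -0.87, against 0.10 and 0.16 in the other sham rats, -0.01 to 0.58 at 3 days and -0.44 to 0.07 at 10 days. Of these markers 2 rose at 3 days, Csf3r and Fcnb, where 2.15% of all genes did. Of the 11 neutrophil markers 8 were higher and 3 lower than sham at 3 days. Those lower were Ngp (-0.30), Mmp9 (-0.21) and Mpo (-0.038). The part of either marker list in the values of Tnfsf13 and Tnfrsf21 was not tested.

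The promoters of the 3 genes that rose are shown because these are the members whose RNA level passed the test. Each run is the 250 bases before the annotated start in RefSeq (build GRCr8), 5′ to 3′ on the gene's strand: chr7:115618648-115618897 for Tnfrsf13c, chr10:54901816-54902065 for Tnfsf13 and chr9:25451324-25451573 for Tnfrsf21, all on the minus strand. Capitals mark matches, on either strand, to the GC box GGGCGG, the PU.1 core GAGGAA, the TATA box TATAAA and the kappaB consensus.
Tnfrsf13c: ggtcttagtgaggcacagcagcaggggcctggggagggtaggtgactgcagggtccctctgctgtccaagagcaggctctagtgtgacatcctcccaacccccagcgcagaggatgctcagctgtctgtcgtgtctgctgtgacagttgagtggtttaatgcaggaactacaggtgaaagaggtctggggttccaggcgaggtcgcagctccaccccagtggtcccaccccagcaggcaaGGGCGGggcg
Tnfsf13: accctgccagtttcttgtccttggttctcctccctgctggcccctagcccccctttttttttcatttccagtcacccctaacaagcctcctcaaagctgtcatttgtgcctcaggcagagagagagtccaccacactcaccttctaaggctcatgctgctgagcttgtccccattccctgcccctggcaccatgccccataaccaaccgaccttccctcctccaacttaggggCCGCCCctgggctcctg
Tnfrsf21: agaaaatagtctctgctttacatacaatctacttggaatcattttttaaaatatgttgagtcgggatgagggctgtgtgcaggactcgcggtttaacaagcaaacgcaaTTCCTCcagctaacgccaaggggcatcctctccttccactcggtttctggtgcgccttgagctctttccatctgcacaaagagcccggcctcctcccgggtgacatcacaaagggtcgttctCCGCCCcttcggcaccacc

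Each of these promoters held 1 GC box close to the start, from base -10 to -5 in Tnfrsf13c, -17 to -12 in Tnfsf13 and -19 to -14 in Tnfrsf21, counted from the start. Tnfrsf21 alone also held the PU.1 core, from -141 to -136. Neither the kappaB consensus nor TATAAA was found in these 3 windows. Promoter sequence was matched for 25 of the 32 members. The GC box occurred in 14 of the 25 (56.0%) and in 32.4% of all 27457 promoters of this length, and GAGGAA in 12 (48.0%) and 23.2%. The kappaB consensus occurred in 4 (16.0%), those of Lta, Ltb, Tnfrsf8 and Tnfsf14, and in 3.52% of all promoters. The TATA box occurred in 7 (28.0%) and 13.1%. The median GC content was 55.6% in the windows of members and 52.0% over all promoters. The shares are not matched for this composition, and their difference was not tested. These matches describe letters in the window and show no binding.

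Tnf, the founding cytokine of the family, gave 10.88, 11.24 and 11.24 in sham rats, 11.57, 11.62 and 11.18 at 3 days and 11.42, 10.87 and 11.20 at 10 days. Both comparisons overlapped, and 3-day rat 3 lay below 2 of the sham rats. The difference at 3 days was 0.34 ± 0.17 (adjusted p = 0.381), and 0.21 without sham rat 1. At 10 days it was 0.042 ± 0.17 (adjusted p = 0.936), with a sign that turned without sham rat 1 (-0.080) or 10-day rat 1 (-0.087). Its main receptor on most cells, Tnfrsf1a, which carries a death domain, gave 10.86, 10.81 and 10.86 in sham rats, 10.89, 11.14 and 10.96 at 3 days and 11.05, 10.97 and 10.87 at 10 days. All PPVL rats were above the sham rats by small amounts, with differences of 0.16 ± 0.078 and 0.12 ± 0.078 that did not pass (adjusted p = 0.383 and 0.489). Tnfrsf1b, the receptor typical of leukocytes, gave 11.13, 11.12 and 11.18 in sham rats, 11.09, 11.15 and 11.09 at 3 days and 11.31, 11.16 and 10.97 at 10 days. These groups overlapped, with differences of -0.035 ± 0.083 and 0.0024 ± 0.083 (adjusted p = 0.895 and 0.992).

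The lymphotoxins are made mainly by lymphocytes and act on TNF receptors or on the lymphotoxin beta receptor, Ltbr. Ltb gave 9.40, 9.60 and 9.49 in sham rats, 9.01, 9.39 and 9.35 at 3 days and 9.01, 9.42 and 9.34 at 10 days. Its 3-day rats were all below the sham rats and 10-day rat 2 was not. The differences of -0.25 ± 0.13 and -0.24 ± 0.13 did not pass (adjusted p = 0.399 and 0.391), and were -0.13 without 3-day rat 1 and -0.12 without 10-day rat 1. Ltbr gave 7.08, 7.50 and 7.30 in sham rats, 7.44, 7.58 and 7.55 at 3 days and 7.55, 7.39 and 7.41 at 10 days, with overlap and differences of 0.23 ± 0.10 and 0.16 ± 0.10 (adjusted p = 0.325 and 0.493), or 0.12 and 0.051 without sham rat 1. Lta ranged from 5.62 to 6.29 over the 9 arrays, with differences of -0.0071 ± 0.17 and 0.022 ± 0.17.

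**Figure D3:**
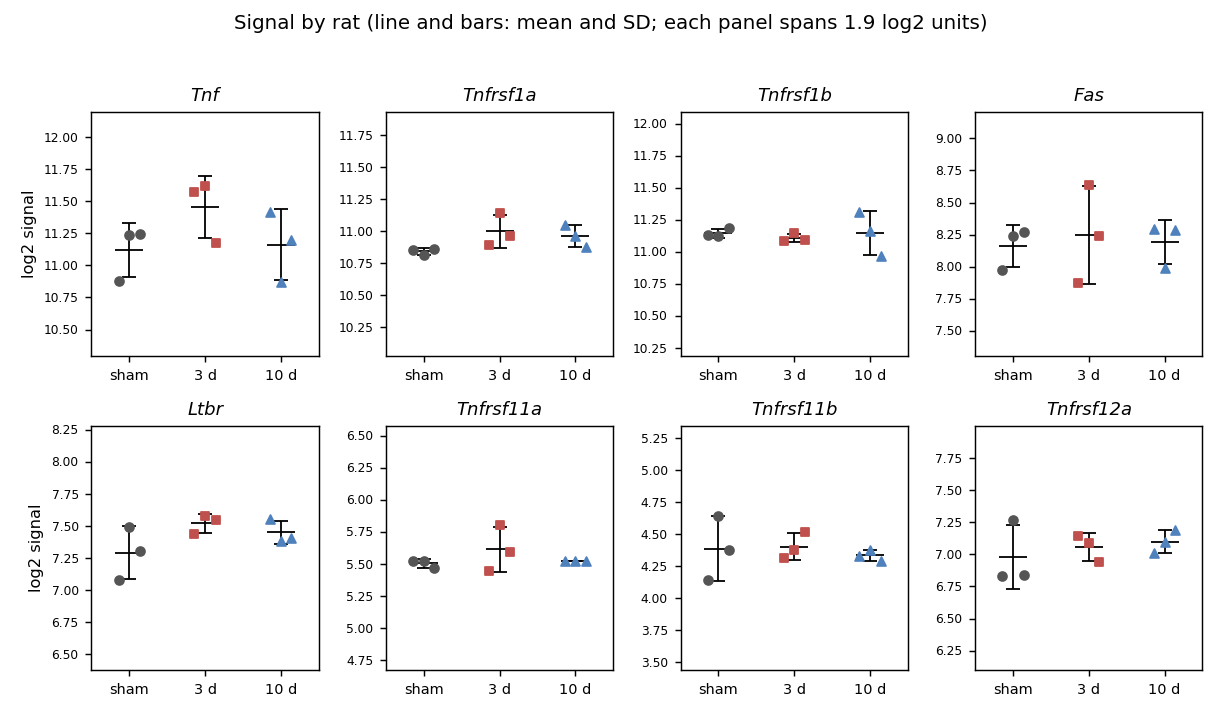
Log2 signal (y axis) of each rat for Tnf, its receptors Tnfrsf1a and Tnfrsf1b, Fas, Ltbr, and the receptors Tnfrsf11a, Tnfrsf11b and Tnfrsf12a in sham, 3-day and 10-day groups; the line and bars are the mean and SD of 3 rats, and each panel spans 1.9 log2 units. Of these genes Tnfrsf1a alone has all 6 PPVL rats above the sham rats, and none passed the test.

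Fas and its ligand Faslg form a pair through which cytotoxic lymphocytes kill cells that carry Fas. Fas gave 7.98, 8.24 and 8.27 in sham rats, 7.87, 8.63 and 8.24 at 3 days and 8.30, 7.99 and 8.29 at 10 days, with overlap and differences of 0.087 ± 0.17 and 0.032 ± 0.17 (adjusted p = 0.872 and 0.953). Faslg gave 10.20, 9.90 and 9.92 in sham rats, 10.05, 10.20 and 9.51 at 3 days and 9.46, 9.74 and 9.49 at 10 days. All 10-day rats were below the sham rats, while 2 of the 3-day rats were not. Its differences were -0.086 ± 0.17 at 3 days and -0.44 ± 0.17 at 10 days (adjusted p = 0.869 and 0.227).

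TRAIL, encoded by Tnfsf10, can trigger death receptors such as Tnfrsf10b. It gave 6.90, 6.88 and 6.92 in sham rats, 6.88, 7.36 and 6.97 at 3 days and 6.72, 7.00 and 6.63 at 10 days. Its highest value was that of 3-day rat 2, and both PPVL groups overlapped sham. The differences were 0.17 ± 0.13 at 3 days, -0.12 ± 0.13 at 10 days and -0.29 ± 0.13 between the days (adjusted p = 0.612, 0.718 and 0.456). Without 3-day rat 2 the first was 0.021 and the last -0.14, and the value at 10 days was -0.042 without 10-day rat 3 and -0.23 without 10-day rat 2. Tnfrsf10b stayed between 3.89 and 4.19 on all arrays, under the filter.

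Of the receptors best known on activated T and natural killer cells, none passed the test. Tnfrsf9, or 4-1BB, gave 11.23, 11.03 and 11.17 in sham rats, 11.02, 10.74 and 10.69 at 3 days and 10.73, 10.80 and 10.63 at 10 days. Every PPVL rat was below every sham rat, narrowly so for 3-day rat 1. Its differences were -0.33 ± 0.097 (adjusted p = 0.122) and -0.42 ± 0.097 (adjusted p = 0.0730), and without 3-day rat 1 both passed (-0.43, adjusted p = 0.0413 and -0.42, adjusted p = 0.0452). Tnfrsf18, or GITR, gave 10.86, 10.51 and 10.66 in sham rats, 10.37, 10.26 and 10.45 at 3 days and 10.27, 10.42 and 10.28 at 10 days. It too had every PPVL rat below every sham rat, with differences of -0.31 ± 0.094 and -0.35 ± 0.094 (adjusted p = 0.123 and 0.110).

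Tnfrsf25, or death receptor 3, and Tnfrsf4, or OX40, were among the members with the smallest p between the days. Tnfrsf25 gave 6.83, 6.75 and 6.61 in sham rats, 6.35, 6.35 and 6.59 at 3 days and 6.63, 6.88 and 6.61 at 10 days. The 3-day rats lay below both other groups, with differences of -0.30 ± 0.099 from sham and 0.27 ± 0.099 between the days (adjusted p = 0.169 and 0.364). Tnfrsf4 gave 7.14, 6.97 and 7.13 in sham rats, 6.91, 6.84 and 7.05 at 3 days and 7.45, 7.04 and 7.27 at 10 days. Its groups overlapped, with a difference between the days of 0.32 ± 0.10 (adjusted p = 0.320).

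RANKL, encoded by Tnfsf11, is a ligand made by T cells and stromal cells that acts on RANK (Tnfrsf11a) and is caught by the decoy osteoprotegerin (Tnfrsf11b). Tnfsf11 gave 7.62, 6.91 and 7.12 in sham rats, 7.02, 6.86 and 6.88 at 3 days and 6.38, 6.68 and 6.41 at 10 days. The 10-day rats were below both other groups, and sham rat 1 was the highest of all. Its difference at 10 days was -0.73 ± 0.16 (1.66-fold lower, adjusted p = 0.0704), and -0.53 without sham rat 1 (adjusted p = 0.0967). At 3 days it was -0.30 ± 0.16 (adjusted p = 0.425), and -0.096 without sham rat 1.

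Tnfrsf11a gave 5.52, 5.52 and 5.47 in sham rats, 5.45, 5.80 and 5.59 at 3 days and 5.53, 5.52 and 5.52 at 10 days, and 4 of the 9 arrays held an identical deposited value. Its differences were 0.11 ± 0.084 and 0.019 ± 0.084 (adjusted p = 0.609 and 0.941). Tnfrsf11b gave 4.14, 4.64 and 4.38 in sham rats, 4.31, 4.38 and 4.52 at 3 days and 4.33, 4.38 and 4.29 at 10 days, close to the filter, with differences of 0.016 ± 0.11 and -0.053 ± 0.11 (adjusted p = 0.971 and 0.872). Both receptors overlapped between all groups. Tnfrsf12a, or Fn14, a receptor induced in injured tissue, gave 6.83, 7.26 and 6.84 in sham rats, 7.14, 7.09 and 6.94 at 3 days and 7.01, 7.10 and 7.19 at 10 days. Its PPVL rats all lay within the sham range, with differences of 0.078 ± 0.12 and 0.12 ± 0.12 (adjusted p = 0.823 and 0.676).

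**Figure D4:**
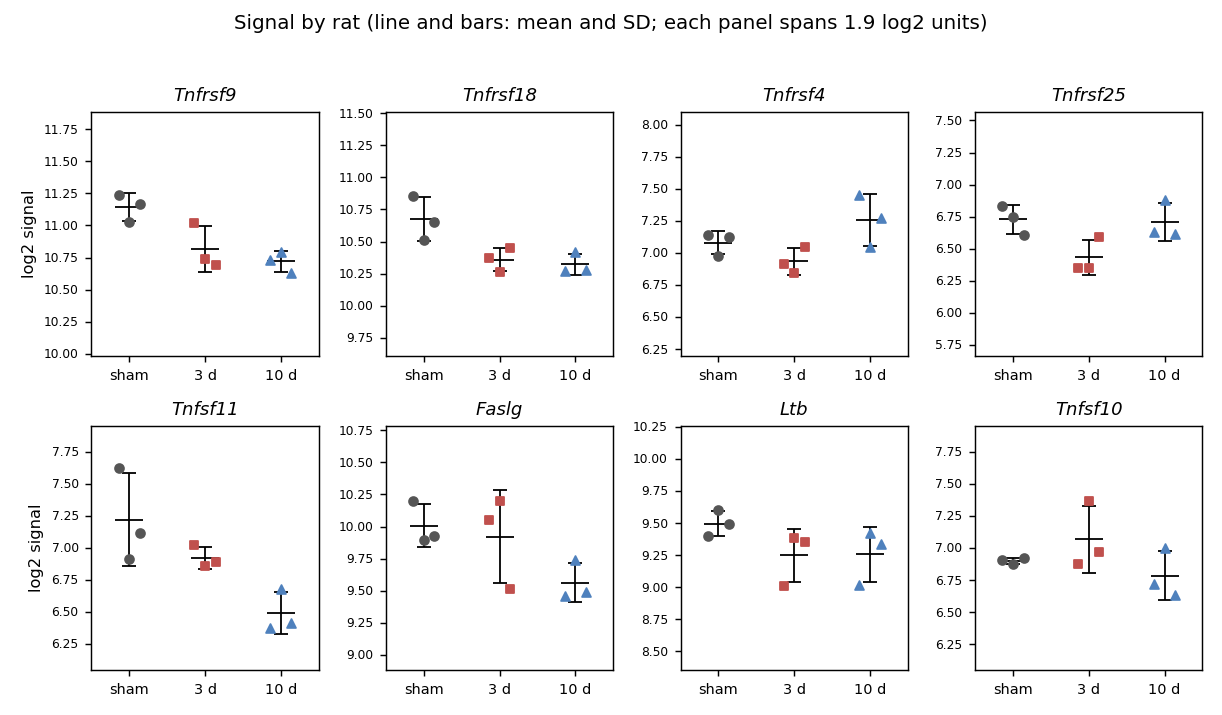
Log2 signal (y axis) of each rat for Tnfrsf9, Tnfrsf18, Tnfrsf4, Tnfrsf25, Tnfsf11, Faslg, Ltb and Tnfsf10 in sham, 3-day and 10-day groups; the line and bars are the mean and SD of 3 rats, and each panel spans 1.9 log2 units. Tnfrsf9 and Tnfrsf18 are lower in all 6 PPVL rats than in any sham rat, Tnfsf11 and Faslg are below sham at 10 days, and none of the 8 passed the test.

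The scores of T cell and natural killer cell markers on the same arrays are set beside these members. The T cell score was 0.12 to 0.29 in sham rats, -0.24 to 0.10 at 3 days and -0.25 to -0.10 at 10 days, and the mean signal of its 12 genes was 9.39 to 9.57, 9.04 to 9.38 and 9.02 to 9.18. The natural killer cell score was 0.15 to 0.25 in sham rats, -0.31 to 0.17 at 3 days and -0.26 to -0.14 at 10 days, with a mean signal of its 11 genes of 10.37 to 10.47, 9.91 to 10.39 and 9.96 to 10.08. Of the 12 T cell genes none passed with limma at 3 days, where 2.86% of all genes did. At 10 days 1, Cd5 (-0.58), fell, where 0.243% of all genes did. On the 2 days 8 and 11 had an unadjusted p under 0.05, where 15.5% and 16.2% of all genes did. Cd4 differed the other way on both days (0.20 and 0.22), and so did Cd2 at 3 days (0.19). No natural killer cell gene passed with limma at either day, where 2.86% and 0.735% of all genes did. At an unadjusted p under 0.05 were 2 and 7 of 11, where 15.5% and 16.2% of all genes were. With a joint score of both lists as a covariate, also added after the data had been examined, Tnfrsf9 differed by -0.18 ± 0.18 at 3 days and -0.18 ± 0.28 at 10 days (adjusted p = 0.904 and 0.985). Tnfsf11 then differed by 0.15 ± 0.26 and 0.017 ± 0.40 (adjusted p = 0.962 and 0.999). Tnfsf13 differed by 0.64 ± 0.29 at 3 days (adjusted p = 0.678), and Tnfrsf13c by 0.33 ± 0.17 at 3 days (adjusted p = 0.706) and -0.052 ± 0.25 at 10 days (adjusted p = 0.992). The joint score differed between the groups, with -0.10 to 0.07 at 3 days and -0.22 to -0.12 at 10 days against 0.13 to 0.27 in sham rats, so its share and that of the ligation cannot be told apart.

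**Figure D5:**
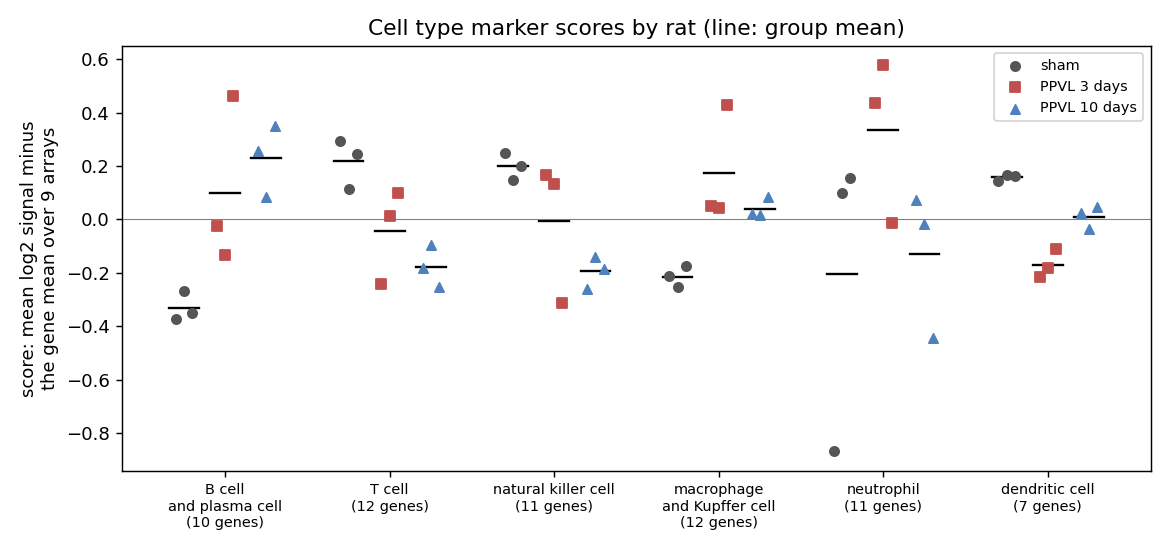
Score (y axis, mean log2 signal of a marker list less each gene's mean over the 9 arrays) of each rat for 6 cell type marker lists, with the group mean as a line. B and plasma cell and macrophage scores are higher in all PPVL rats than in sham rats. The macrophage list includes Vsig4, which reached the filter only through the PPVL rats. Dendritic cell and T cell scores are lower in all PPVL rats, and sham rat 1 has the lowest neutrophil score (-0.87).

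The remaining tested members did not pass at either day. Among the ligands, the differences at 3 and 10 days were 0.33 ± 0.20 and 0.18 ± 0.20 for TL1A (Tnfsf15), the ligand of death receptor 3. They were 0.11 ± 0.14 and 0.17 ± 0.14 for OX40 ligand (Tnfsf4), 0.10 ± 0.16 and 0.11 ± 0.16 for GITR ligand (Tnfsf18), and 0.024 ± 0.12 and 0.0058 ± 0.12 for LIGHT (Tnfsf14). All 4 of these ligands overlapped between PPVL and sham rats. Among the receptors, HVEM (Tnfrsf14), which binds LIGHT, differed by -0.13 ± 0.13 and -0.19 ± 0.13, and Tnfrsf26 by -0.20 ± 0.13 and -0.16 ± 0.13. Both had all 10-day rats below the sham rats. CD30 (Tnfrsf8) differed by -0.14 ± 0.17 and -0.22 ± 0.17, with the highest value, 5.93, in sham rat 2. Tnfrsf19 stayed between 3.96 and 4.33, under the filter, and 5 of the 9 arrays held an identical value.

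Several members are neighbours in the RefSeq annotation, and their differences are set side by side here. In the run Lta, Tnf and Ltb, with no protein-coding gene between them, the differences at 3 days were -0.0071, 0.34 and -0.25. In the run Tnfsf4, Tnfsf18 and Faslg those at 10 days were 0.17, 0.11 and -0.44. The adjacent receptors Tnfrsf4 and Tnfrsf18 differed from sham by -0.15 and -0.31 at 3 days and by 0.18 and -0.35 at 10 days, where the value of Tnfrsf4 was 0.078 without 10-day rat 1 and 0.28 without 10-day rat 2. Whether any of these neighbours differ from each other was not tested.

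Below the receptors, signals pass through TRAF adaptors, caspase 8 and its inhibitor, and the NF-kappaB proteins and their inhibitors. Of 50 such genes 43 were tested, and the other 7, among them Tnfaip3, had no probeset with a single symbol. At 3 days 1 of 43 fell and none rose, where 0.714% and 2.15% of all genes did, and 11 had an unadjusted p under 0.05, where 15.5% of all genes did. The gene was Traf4, an adaptor of the TRAF family, with 8.48, 8.30 and 8.47 in sham rats, 7.99, 7.79 and 8.07 at 3 days and 7.98, 8.14 and 8.08 at 10 days. All PPVL rats were below the sham rats, and the differences were -0.46 ± 0.089 (adjusted p = 0.0271) and -0.35 ± 0.089 (adjusted p = 0.0965). Leaving out sham rat 1 (adjusted p = 0.0910) or 3 (0.0901), or 3-day rat 1 (0.0555) or 2 (0.0740), lost the call.

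At 10 days and between the days none of the 43 passed with limma, with 10 and 1 at an unadjusted p under 0.05, where 16.2% and 11.3% of all genes were. The median difference of the list was 0.0012 at 3 days and -0.034 at 10 days. Bcl3, a nuclear partner of NF-kappaB, differed by -0.58 ± 0.13 at 3 days (adjusted p = 0.0519) and passed when sham rat 1 was left out (adjusted p = 0.0421), and likewise 10-day rat 2 (0.0347). Relb, a subunit of the non-canonical pathway below Ltbr and the BAFF receptor, differed by -0.21 ± 0.062 and -0.22 ± 0.062 (adjusted p = 0.124 and 0.125), and its PPVL rats were all below the sham rats. The inhibitor Nfkbie differed by -0.25 ± 0.10 and -0.38 ± 0.10 (adjusted p = 0.267 and 0.111). In contrast Tnip2, which restrains NF-kappaB, differed by 0.39 ± 0.13 and 0.48 ± 0.13 (adjusted p = 0.163 and 0.112), with all PPVL rats above the sham rats.

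The kinase Ripk1, which links death receptors to survival and to cell death, had the smallest p of the list between the days. It gave 9.86, 9.91 and 9.95 in sham rats, 9.81, 9.96 and 9.96 at 3 days and 10.09, 10.13 and 10.17 at 10 days. The 10-day rats were above both other groups, with differences of 0.23 ± 0.063 from sham and 0.22 ± 0.063 from 3 days (adjusted p = 0.119 and 0.282). Nfkbib, Tradd and Tnip1 differed between the days by -0.13, -0.13 and -0.12 (adjusted p = 0.456, 0.556 and 0.569).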

How the data were processed

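Biotin-labelled material prepared from RNA of hepatic macrophages of 9 rats was hybridised to 1-colour Affymetrix arrays. The authors deposited log2 signals, which they computed by robust multi-array average (RMA) in Transcriptome Analysis Console, per the submitters' processing notes. Versions and genome build are not given in the sources used here. For arrays no depth applies, and their number limits the precision. RMA's summary can give identical values on several arrays: 24.4% of the 36685 probesets, and 3 members, held a value repeated on 3 or more arrays.

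Probesets with 1 symbol in the platform annotation (18511) were collapsed to the probeset of highest mean, and the 14014 genes whose mean reached the 30th percentile over all probesets entered the tests. Linear models were fitted to all 9 arrays with limma 3.58.1 in R 4.3.3 (6 residual and 3.59 prior degrees of freedom, 2-sided, no trend), and p-values were adjusted over all 14014 genes. With 3 against 3 rats an exact permutation test of 1 gene cannot go below p = 0.1. The fit was also run on simulated data with independent normal noise for each gene and differences planted at 3 days only. Such data hold no spread shared by the genes of an array, so the run cannot show whether the calls here hold. Values on every array are given for 22 members: those past the test, the 5 of smallest p in each comparison, and 17 chosen for their roles. Signalling genes were named if past the test or among the 4 of smallest p in a comparison. Members, lists and rules were chosen with earlier results of these data known. Alternatives were other filters, the mean of probesets, quantile normalization, a trend with robust moderation, array weights, fits of 2 groups, a replicate block and leaving out each array. Promoters came from RefSeq, matched through the gene identifiers of the platform annotation.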

Additional observations from a re-analysis of the deposited data

How the results depend on the processing

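With 3 rats per group, many calls lay close to the threshold. Of the members, 3 were called at 3 days (1 to 3 without 1 array) and 1 at 10 days (0 to 2). The 3 called at 3 days without 3-day rat 1 were 2 higher and 1 lower, the lower being Tnfrsf9. Tnfrsf21 was called at 3 days in 0 of the 9 fits without 1 array. Of the signalling genes 1 was called at 3 days (0 to 2), and of all genes 401, 103 and 10 in the 3 comparisons (190 to 327, 0 to 140 and 0 to 18). No member was called between the days in any of these fits. With no filter, no member and no gene was called at 10 days. With the filter at the 50th percentile 2 signalling genes were called at 3 days and 173 genes at 10 days, with quantile normalization 2 and 170, with trend and robust moderation 2 and 173, and with array weights 2 and 197. Quantile normalization gave 1 gene higher and 7 lower between the days, against 3 and 7. In fits of only the 2 groups compared, 0 members and 0 signalling genes were called at 3 days, and 134, 61 and 3 genes in the 3 comparisons, from fewer arrays.

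Correlations of deviations were -0.095 to 0.084 for same-numbered rats and -0.127 to 0.167 for rats of different number. The labels do not say what the numbers mean. With 3 rats per group this check cannot show whether same-numbered rats shared a day or batch. With the replicate block 264, 0 and 0 genes and 0 members at 10 days were called. With the B cell score as a covariate, added later, 0 members at either day, 0 signalling genes at 3 days and 77, 0 and 3 genes were called. With the joint score of T and natural killer cells no member or signalling gene was called (0 and 0) and 1, 0 and 0 genes were, and the difference of Tnfrsf13c at 10 days turned to -0.052. For counts that moved, the cause was not tested. In the settings with no call, limma gave 3 to 9 members at 3 days, 1 to 10 at 10 days and 2 to 7 between the days at an unadjusted p under 0.05, with 5 to 9 signalling genes at 3 days and 666 to 2498 genes at 10 days and 943 to 1511 between the days. Signalling genes numbered 3 to 11 at 10 days and 1 to 4 between the days. Among differences of single genes under the planned settings, a call was lost 27 times and gained 8 times, and no called difference reversed.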

Other observations

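Several genes of the superfamily carry symbols outside the rule used above. Of 8 such genes, 6 were tested. None passed with limma at 3 days, at 10 days or between the days, where 2.86%, 0.735% and 0.0714% of all genes did. At an unadjusted p under 0.05 there were 0, 1 and 1, where 15.5%, 16.2% and 11.3% of all genes were. The gene in question was Cd27, a costimulatory receptor of T cells and natural killer cells, with 10.65, 10.30 and 10.46 in sham rats, 10.57, 10.44 and 10.48 at 3 days and 10.31, 10.30 and 9.86 at 10 days. The 10-day rats were below all 3-day rats, with a difference of -0.34 ± 0.13 between the days (adjusted p = 0.377) and of -0.31 ± 0.13 from sham (adjusted p = 0.262). Its ligand Cd70 differed by 0.023 ± 0.054 and 0.026 ± 0.054 at 3 and 10 days. Its mean signal of 4.32 was close to the filter, and all 3-day arrays held the identical value 4.33. Cd40lg, a ligand of activated helper T cells, differed by 0.19 ± 0.26 and 0.068 ± 0.26. The receptors Ngfr, Relt and Edar differed by 0.056, 0.12 and -0.036 at 3 days and 0.15, 0.094 and 0.057 at 10 days.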
